A study of Mus musculus with 12 samples.

Results

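Procollagen is hydroxylated, folded and trimmed by a small set of enzymes and helpers, of which 10 are described here: P4ha1, P4ha2, P4ha3, P4hb, Plod1, Plod2, Plod3, Serpinh1, Crtap and Pcolce. The 10 genes were taken by name from a table of 33246 listed genes. No value was a criterion, but earlier results of these data were known when the genes were chosen. All 10 were among the 14542 genes with enough reads to be tested. Their RNA was measured in primary fibroblasts from the ear of C57BL/6 mice, isolated at 1 month of age from both sexes and used at passage 2. The cells were kept for 48 h on alginate gels that carried RGD, a short cell adhesion peptide. Every group therefore had the same cells, ligand and time. The elastic gels were covalently crosslinked and store load without dissipating it, whereas the viscoelastic gels were ionically crosslinked with calcium and relax slowly under load. Each kind was made at a stiffness of 2 or 20 kPa, which gave 4 groups of 3 samples, called here 2 kPa Elastic, 20 kPa Elastic, 2 kPa Viscoelastic and 20 kPa Viscoelastic. The gel types differ in crosslinking chemistry as well as in relaxation, and these cannot be told apart here. The study described the 3 samples as biological replicates, and no label tied them to separate animals.

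Collagen chains are modified in the endoplasmic reticulum before they fold. Prolyl 4-hydroxylase, a tetramer of catalytic alpha subunits (P4ha1, P4ha2 or P4ha3) and the beta subunit P4hb, which is also protein disulfide isomerase, makes the 4-hydroxyproline that keeps the triple helix stable at body temperature. Lysyl hydroxylases (Plod1, Plod2, Plod3) make hydroxylysine, the site of sugar attachment and of stable crosslinks. Plod1 acts mainly on helical lysines, Plod2 mainly on the telopeptide lysines at the chain ends, and Plod3 also carries glycosyltransferase activity. Serpinh1, also called HSP47, is a chaperone that binds folded procollagen. Crtap is the helper subunit of the prolyl 3-hydroxylase 1 complex, and Pcolce enhances removal of the C-propeptide outside the cell. Fibroblasts depend on these steps to secrete fibrillar collagen.

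The 3 prolyl 4-hydroxylase alpha genes showed 3 different patterns across the gels, so their start regions are printed here as context for those values. Each sequence spans 250 bases before to 50 bases after the start annotated by RefSeq (GRCm38.p6), and 9 of the 10 genes had an entry. The P4ha2 window lies inside the gene span given below from GENCODE, whose first start is upstream of the RefSeq one, whereas for P4ha1 and P4ha3 both annotations give the same start. All 3 genes lie on the + strand. Capitals mark the core of the hypoxia response element, ACGTG or GCGTG, on either strand, where it appears as CACGT or CACGC when read on the printed strand. P4ha1 and P4ha2 are textbook hypoxia-inducible genes.
P4ha1 (chr10:59323046-59323345): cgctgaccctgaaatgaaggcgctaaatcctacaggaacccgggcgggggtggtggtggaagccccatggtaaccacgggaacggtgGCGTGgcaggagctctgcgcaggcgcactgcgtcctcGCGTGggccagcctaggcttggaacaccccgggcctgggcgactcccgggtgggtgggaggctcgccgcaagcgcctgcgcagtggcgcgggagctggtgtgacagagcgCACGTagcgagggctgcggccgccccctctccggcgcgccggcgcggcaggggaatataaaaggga
P4ha2 (chr11:54100674-54100973): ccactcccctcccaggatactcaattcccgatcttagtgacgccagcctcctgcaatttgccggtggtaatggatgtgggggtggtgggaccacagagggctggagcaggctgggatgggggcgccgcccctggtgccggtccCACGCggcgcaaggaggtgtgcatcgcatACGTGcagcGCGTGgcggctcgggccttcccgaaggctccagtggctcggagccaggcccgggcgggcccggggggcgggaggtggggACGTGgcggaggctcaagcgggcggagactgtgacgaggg
P4ha3 (chr7:100285270-100285569): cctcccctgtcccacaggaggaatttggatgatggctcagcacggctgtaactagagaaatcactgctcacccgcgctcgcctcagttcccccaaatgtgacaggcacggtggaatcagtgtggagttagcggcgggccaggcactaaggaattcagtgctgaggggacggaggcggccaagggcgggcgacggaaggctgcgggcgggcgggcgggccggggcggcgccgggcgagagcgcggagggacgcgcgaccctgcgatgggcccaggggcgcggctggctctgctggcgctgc
The core was found 3 times in the P4ha1 window, 4 times in that of P4ha2 and 0 times in that of P4ha3. It was present in 43.8% of 32851 promoter windows of the same length. The windows of P4hb, Crtap, Plod1, Plod3, Serpinh1 and Pcolce held 3, 3, 2, 4, 1 and 1 matches. The GC box GGGCGG, searched on both strands, was found 2, 4 and 5 times in P4ha1, P4ha2 and P4ha3, and at least once in 35.7% of all windows. All 3 windows were GC rich, at 70.3%, 70.3% and 69.3%, against a median of 52.7%. These matches describe letters in a window and are not evidence of binding. The genes themselves lie apart in the genome: P4ha1 is on chromosome 10 (59323296 to 59373304), P4ha2 on chromosome 11 (54100095 to 54131665) and P4ha3 on chromosome 7 (100285520 to 100319699), all in mm10.

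Each library held between 36626221 and 43612804 counted reads, and the 10 genes together took 0.497% to 0.608% of them. Every gene had at least 2359 reads in every library, so in most groups counting error is small beside the spread between samples. It is less so where that spread is small, as for P4ha2 in 20 kPa Viscoelastic (SD 1.81% of the mean). Fibroblast markers were abundant, with 8 of 8 detected and a summed level of 17330.4 to 20625 CPM (counts per 1000000 reads, normalized by TMM). Most cartilage markers were abundant as well, but Snorc was at 3.12 to 5.27 CPM in the group means. Col2a1 averaged 2950.1, 2416, 2964 and 3022 CPM in 2 kPa Elastic, 20 kPa Elastic, 2 kPa Viscoelastic and 20 kPa Viscoelastic, and Acan 1456, 1028, 1052 and 1019.7 CPM, whereas Matn1 was at or near 0. The summed cartilage list ranged from 4408 to 5721 in 2 kPa Elastic, 4098 to 4154 in 20 kPa Elastic, 4339.7 to 5605 in 2 kPa Viscoelastic and 4505 to 5779 CPM in 20 kPa Viscoelastic. The summed lists reached at most 4.84 CPM for keratinocyte, 2.02 for endothelial, 11.9 for immune, 0.118 for skeletal muscle and 3.7 for Schwann cell and melanocyte markers. The part of the cartilage-expressing cells in the results below was not tested, and in these bulk samples a change in the share of cells of a type and a change in RNA per cell cannot be told apart.

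One library stood apart for these genes. Replicate 2 of 2 kPa Viscoelastic was above its group mean for 10 of 10 genes, by a median of 0.149 on the log2 scale, while the median over all tested genes was 0.006. The other two libraries of that group were below the mean for all 10. Its summed fibroblast markers were 20247 CPM, against 17659 and 18779 in its group. Without this library the viscoelastic difference at 2 kPa was 0.14 for Plod2, -0.15 for Plod3 and -0.27 for Plod1 (edgeR adjusted p = 0.306, 0.105 and 0.0168), and the averaged difference was -0.04 for P4ha1, -0.07 for P4hb and -0.02 for Pcolce. Other values without it are given beside the results that it moved across the threshold. In 20 kPa Elastic, replicate 1 was above the group mean for 10 of 10 genes and replicate 2 for 0, with medians of 0.039 and -0.065.

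The genes covered a wide range of levels. Per kilobase of exon, P4hb and Serpinh1 were highest, averaging 603 and 587 CPM per kb over the 12 samples. Their ranges over samples, 571 to 656 and 526 to 704, overlapped. Pcolce (148) and Crtap (142) followed with overlapping ranges of 126 to 176 and 119 to 167, then P4ha1 (87.4) and Plod3 (76.4), whose ranges of 81.5 to 95.1 and 62.9 to 83.7 also overlapped. Plod2 stood at 49.1 CPM per kb, with no sample shared with its neighbours in the order. P4ha3 (27.4), Plod1 (26.5) and P4ha2 (21.7) formed the lowest tier, with overlapping ranges. The order of the last 3 depends on the length used, since with the longest transcript in place of the union of exons they stood at 35.7, 43.7 and 44.3.

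**Figure D1:**
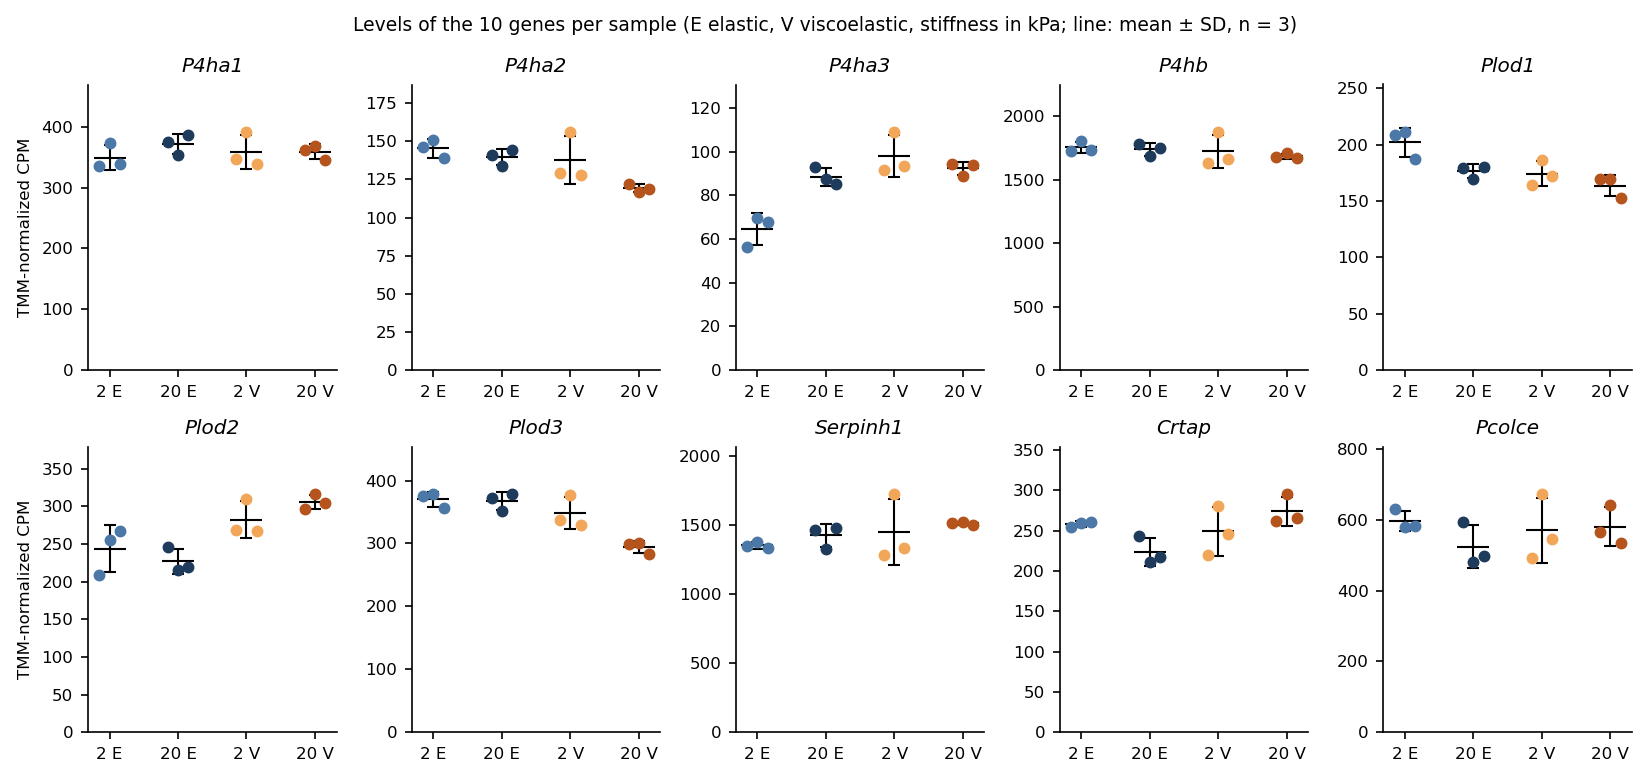
Level of each of the 10 genes in each sample, in CPM normalized by the trimmed mean of M values (TMM), for the elastic (E) and viscoelastic (V) gels at 2 and 20 kPa. Points are samples and lines are the mean ± SD of 3 samples, each axis starts at 0, and P4ha3 is lowest in the 3 samples of 2 kPa Elastic while Plod2 is higher in all 6 viscoelastic than in all 6 elastic samples.

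How many of the genes differed depended on the comparison, and the count was close to the share over all genes. Between viscoelastic and elastic gels at 2 kPa, 2 of 10 genes passed an adjusted p of 0.05 (edgeR quasi-likelihood test, Benjamini-Hochberg over all tested genes), with P4ha3 higher and Plod1 lower. Over all tested genes 19.9% passed, 8.77% higher and 11.1% lower. That split turned with library totals in place of TMM, from 1275 higher and 1617 lower genes to 1675 and 1258. At 20 kPa, 4 of 10 passed, with Plod2 and Crtap higher and P4ha2 and Plod3 lower, against 33.5% of all genes (17.4% higher, 16.1% lower), and with library totals the 2527 higher and 2339 lower genes became 2937 and 1901. Averaged over both stiffnesses, 5 of 10 differed between gel types, P4ha3 and Plod2 higher and P4ha2, Plod1 and Plod3 lower, against 40.0% of all genes (19.6% higher, 20.4% lower). With library totals the 2846 higher and 2971 lower genes behind these shares became 3538 and 2309.

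Fewer of the 10 passed for stiffness, as did a smaller share of all genes. With only the groups compared fitted, stiffness on elastic gels had more calls among the 10 than viscoelasticity at 2 kPa. Between 20 and 2 kPa on elastic gels only P4ha3 passed of the 10, and it was higher at 20 kPa. All genes passed in 14.0% of cases, 6.81% higher and 7.14% lower. On viscoelastic gels 0 of 10 passed by the edgeR test. The background there was 2.28% (1.58% higher, 0.695% lower), 2 of the 10 had an unadjusted p under 0.05, and DESeq2 called 1, Plod3. The interaction, which asks whether the stiffness difference on viscoelastic gels departs from that on elastic gels, was called for P4ha3 alone, with a negative sign, against 7.56% of all genes (4.45% positive, 3.12% negative). The median log2 fold change of the 10 genes lay between -0.04 and 0.02 in the 6 comparisons, and that of all genes between -0.01 and 0.02. The viscoelastic comparison at 2 kPa and the stiffness comparison on elastic gels share the 2 kPa Elastic samples, so their values are not independent.

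**Figure D2:**
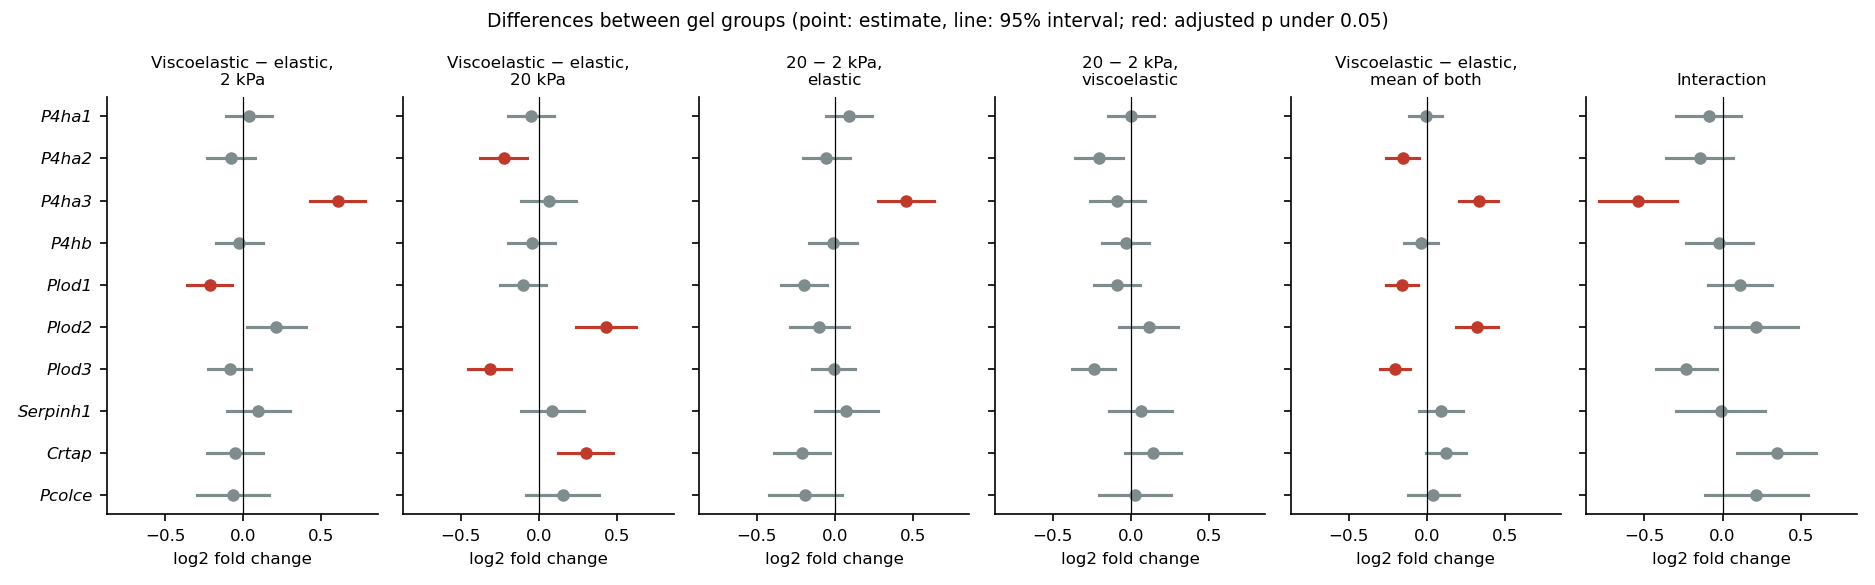
Log2 fold change of each gene in the 6 comparisons, with points for the estimate of the quasi-likelihood fit and lines for its 95% interval. Red marks an adjusted p under 0.05, reached by P4ha3 in 4 comparisons, by Plod1, P4ha2, Plod2 and Plod3 in 2 each and by Crtap in 1.

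Among the catalytic alpha subunits of prolyl 4-hydroxylase, P4ha3 was called in the most comparisons, 4 of 6. Its level was 56.2, 69.8 and 67.7 CPM in the 3 samples of 2 kPa Elastic and 93.0, 87.4 and 85.1 CPM in 20 kPa Elastic. It was 91.7, 109 and 93.5 CPM in 2 kPa Viscoelastic and 94.3, 89.0 and 93.9 CPM in 20 kPa Viscoelastic. The 3 samples of 2 kPa Elastic were the lowest of the 12, and none overlapped another group, whereas the other 3 groups overlapped each other.

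On 2 kPa gels P4ha3 was 1.52-fold higher with viscoelasticity, a log2 fold change of 0.60 (SE 0.0832, edgeR adjusted p = 0.000272), and 3 of 3 viscoelastic samples lay above every elastic one. On elastic gels it was 1.37-fold higher at 20 than at 2 kPa (log2 fold change 0.46, SE 0.0832, edgeR adjusted p = 0.00236). In contrast, the viscoelastic difference at 20 kPa was 0.06 (95% interval -0.114 to 0.237, edgeR adjusted p = 0.6) and the stiffness difference on viscoelastic gels was -0.09 (95% interval -0.263 to 0.088, edgeR adjusted p = 0.61). The interaction itself was -0.54 (SE 0.117, edgeR adjusted p = 0.0109), so the stiffness effects on the 2 gel types differed by this test. Averaged over stiffness, P4ha3 was 1.26-fold higher on viscoelastic gels (edgeR adjusted p = 0.000517). All 4 calls held in every other fit tried, with an interaction of -0.60 to -0.45 and its edgeR or DESeq2 adjusted p from 0.000235 to 0.0263, so that only a threshold of 0.01 ended the interaction call. Without replicate 2 of 2 kPa Viscoelastic the difference at 2 kPa was 0.52 and the interaction -0.46.

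P4ha2 behaved differently and was lowest on the stiff viscoelastic gels. It stood at 146, 151 and 139 CPM in 2 kPa Elastic, 141, 134 and 144 in 20 kPa Elastic, 129, 156 and 128 in 2 kPa Viscoelastic and 122, 117 and 119 in 20 kPa Viscoelastic. The last group lay below every sample of the other groups. At 20 kPa P4ha2 was 14.6% lower on viscoelastic than on elastic gels (log2 fold change -0.23, SE 0.0718, edgeR adjusted p = 0.0243), and averaged over stiffness it was 10.1% lower (log2 fold change -0.15, edgeR adjusted p = 0.0249). At 2 kPa the difference was -0.08 (95% interval -0.234 to 0.072).

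These P4ha2 calls were near the threshold. The one at 20 kPa was lost on leaving out replicate 3 of 20 kPa Elastic (-0.21, edgeR adjusted p = 0.085) or replicate 2 or 3 of 20 kPa Viscoelastic (edgeR adjusted p = 0.069 and 0.0646), and with offsets for gene length and GC content (-0.19, edgeR adjusted p = 0.0607). The averaged one was lost with library totals in place of TMM, with the offsets, and without replicate 2 of 2 kPa Elastic, replicate 3 of 20 kPa Elastic or replicate 1 or 3 of 2 kPa Viscoelastic (edgeR adjusted p = 0.0647, 0.0567, 0.0521 and 0.0672). Without the replicate 2 of 2 kPa Viscoelastic that stood apart, P4ha2 was lower also at 2 kPa, by -0.18 (edgeR adjusted p = 0.0393). Between 20 and 2 kPa it differed by -0.05 on elastic and -0.20 on viscoelastic gels (edgeR adjusted p = 0.673 and 0.143), and the interaction was -0.15 (adjusted p = 0.433 by the same edgeR test).

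P4ha1, the most abundant alpha subunit, stayed within a narrow range. Its mean was 349 ± 20.8, 372 ± 16.3, 359 ± 28.7 and 359 ± 11.4 CPM (SD, n = 3) in 2 kPa Elastic, 20 kPa Elastic, 2 kPa Viscoelastic and 20 kPa Viscoelastic. The samples ran from 335 to 391 CPM and all groups overlapped. The averaged viscoelastic difference was -0.01 with a 95% interval of -0.111 to 0.098 (edgeR adjusted p = 0.931), and the pairwise values ran from -0.05 for viscoelasticity at 20 kPa to 0.09 for stiffness on elastic gels.

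The makeup of the alpha subunit RNA therefore differed between groups. As a share of the summed counts per kilobase of the 3 genes, P4ha3 made up 16.0% ± 1.27 (SD, n = 3) in 2 kPa Elastic and 20.0% ± 1.04 in 20 kPa Elastic. It made up 22.3% ± 0.411 in 2 kPa Viscoelastic and 21.7% ± 0.868 in 20 kPa Viscoelastic. P4ha2 went the other way, from 18.1% ± 0.781 in 2 kPa Elastic through 15.9% ± 0.131 and 15.7% ± 0.41 to 14.1% ± 0.312 in 20 kPa Viscoelastic. P4ha1 stayed between 62.1% and 65.9% in the group means. In 2 kPa Elastic the P4ha2 share exceeded that of P4ha3 in all 3 samples, and in the other groups it was below it in all 9. This order depends on length: in raw counts, or per length of the longest transcript, P4ha2 had the larger share in all 4 group means (with the longest transcript, 29.6% against 16.7% in 2 kPa Elastic and 23.5% against 23.1% in 20 kPa Viscoelastic). No test was made on shares.

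P4hb, the beta subunit that every tetramer needs and a general disulfide isomerase, was the most abundant of the 10 and showed no detectable difference. Its mean was 1755 ± 47.1, 1739.8 ± 50.1, 1724 ± 132 and 1685 ± 20.1 CPM (SD, n = 3) in the order above. In each comparison the groups overlapped. The averaged viscoelastic difference was -0.04 with a 95% interval of -0.142 to 0.071 (edgeR adjusted p = 0.598), and the pairwise values ran from -0.05 at 20 kPa to -0.01 for stiffness on elastic gels.

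Averaged over both stiffnesses, the lysyl hydroxylases differed between the gel types in opposite directions, Plod2 being higher and Plod1 and Plod3 lower on viscoelastic gels. Plod2, the telopeptide lysyl hydroxylase, was 209, 256 and 267 CPM in 2 kPa Elastic and 246, 216 and 219 CPM in 20 kPa Elastic. It was 269, 310.4 and 268 CPM in 2 kPa Viscoelastic and 297, 316 and 304 CPM in 20 kPa Viscoelastic. All 6 viscoelastic samples lay above all 6 elastic samples, narrowly at 2 kPa, where 267 faced 268.

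At 20 kPa Plod2 was 1.35-fold higher on viscoelastic gels (log2 fold change 0.43, SE 0.0886, edgeR adjusted p = 0.0022). At 2 kPa the difference was 0.21 and did not pass (95% interval 0.024 to 0.401 without adjustment, edgeR adjusted p = 0.104). Averaged over stiffness it was 1.25-fold higher (log2 fold change 0.32, edgeR adjusted p = 0.00109). The difference between the effects at 20 and 2 kPa, which is the interaction, was 0.22 (95% interval -0.051 to 0.482, edgeR adjusted p = 0.336), so the viscoelastic effects at the 2 stiffnesses were not shown to differ. Stiffness differences were -0.10 on elastic and 0.11 on viscoelastic gels. The calls at 20 kPa and over both stiffnesses held in every other fit, with log2 fold changes of 0.39 to 0.47 and 0.27 to 0.36.

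Plod3, which also carries glucosyltransferase activity for hydroxylysine, moved the other way. Its samples were at 376, 378 and 356 CPM in 2 kPa Elastic, 373, 352 and 378 in 20 kPa Elastic, 338, 377 and 329.8 in 2 kPa Viscoelastic and 299.7, 301 and 284 in 20 kPa Viscoelastic. The 20 kPa Viscoelastic samples were the lowest of the 12, and the other groups overlapped. At 20 kPa Plod3 was 19.7% lower on viscoelastic gels (log2 fold change -0.32, SE 0.0638, edgeR adjusted p = 0.00184), and averaged over stiffness 13.1% lower (log2 fold change -0.20, edgeR adjusted p = 0.00265). Both calls held in every other fit.

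At 2 kPa the Plod3 difference was -0.09 (95% interval -0.223 to 0.049, edgeR adjusted p = 0.363). Stiffness differences were -0.01 on elastic gels (edgeR adjusted p = 0.952) and -0.24 on viscoelastic gels. The latter missed the threshold with the edgeR test (adjusted p = 0.0611), was called by DESeq2 (adjusted p = 0.00527) and was called by edgeR with no filter on low counts (adjusted p = 0.0485). The interaction was -0.23 (edgeR adjusted p = 0.138, and 0.0458 with length and GC offsets). Plod3 overlaps the antisense gene Znhit1, which was at 19.1 to 29.9 CPM, and no source used here states whether reads were counted by strand.

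Plod1, the lysyl hydroxylase of helical lysines, was highest on the soft elastic gels. It stood at 208, 211 and 187 CPM in 2 kPa Elastic, 179.5, 169 and 180.3 in 20 kPa Elastic, 164, 186 and 172 in 2 kPa Viscoelastic and 169, 169 and 153 in 20 kPa Viscoelastic. The 2 kPa Elastic samples lay above all others, narrowly at the nearest (187 against 186 CPM). At 2 kPa Plod1 was 13.8% lower on viscoelastic gels (log2 fold change -0.21, SE 0.0682, edgeR adjusted p = 0.0378), and averaged over stiffness 10.5% lower (log2 fold change -0.16, edgeR adjusted p = 0.0163). At 20 kPa the difference was -0.10 (edgeR adjusted p = 0.255). The stiffness difference was -0.20 on elastic gels (edgeR adjusted p = 0.0666) and -0.09 on viscoelastic gels, and the interaction was 0.11 (edgeR adjusted p = 0.553).

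The Plod1 call at 2 kPa was fragile and held in 10 of 20 other fits. It was lost without replicate 1 or 2 of 2 kPa Elastic, replicate 1 of 20 kPa Elastic, or replicate 1 or 3 of 2 kPa Viscoelastic, with edgeR adjusted p of 0.136, 0.141, 0.0549, 0.104 and 0.1. The averaged call was lost without replicate 3 of 20 kPa Viscoelastic (edgeR adjusted p = 0.0501), with library totals and with length and GC offsets. The stiffness difference on elastic gels was called without replicate 3 of 2 kPa Elastic (-0.25, edgeR adjusted p = 0.043), without replicate 2 of 2 kPa Viscoelastic (edgeR adjusted p = 0.0408) and with the 2 groups fitted alone (edgeR adjusted p = 0.0411).

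**Figure D3:**
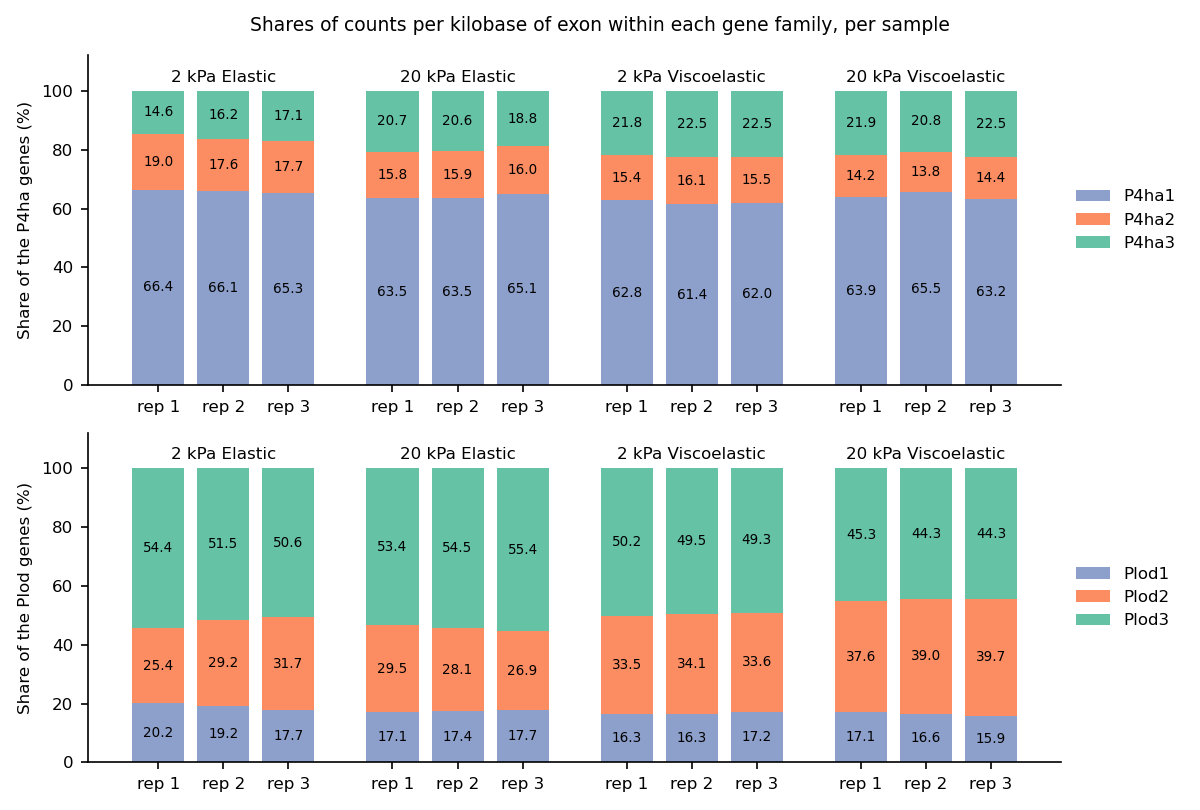
Share of each gene in the summed counts per kilobase of exon of its family, in percent, for each of the 12 samples; the upper bars show P4ha1, P4ha2 and P4ha3 and the lower bars Plod1, Plod2 and Plod3. The Plod2 share is 25.4% to 31.7% in the elastic samples and 33.5% to 39.7% in the viscoelastic samples.

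Within the lysyl hydroxylases the shares did not overlap between gel types for Plod2 and Plod3. Plod2 made up 28.8% ± 3.19 (SD, n = 3) of the family in 2 kPa Elastic and 28.2% ± 1.28 in 20 kPa Elastic, against 33.7% ± 0.351 in 2 kPa Viscoelastic and 38.8% ± 1.08 in 20 kPa Viscoelastic. Plod3 made up 52.2% ± 2.02 and 54.4% ± 1.03 on the elastic gels, against 49.7% ± 0.461 and 44.7% ± 0.55 on the viscoelastic gels. The lowest elastic and the highest viscoelastic Plod3 shares were 50.6% and 50.2%. Plod1 made up 16.6% to 19.0% in the group means. With the longest transcript as length, Plod2 went from 28.6% in 20 kPa Elastic to 39.1% in 20 kPa Viscoelastic. Between these groups the mean level of Plod2 was higher and those of Plod1 and Plod3 lower, so a change of length could not turn the direction.

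The chaperone Serpinh1 was at 1350.4, 1379 and 1331 CPM in 2 kPa Elastic, 1464, 1327 and 1481 in 20 kPa Elastic, 1286, 1721 and 1334 in 2 kPa Viscoelastic and 1517, 1518 and 1499 in 20 kPa Viscoelastic. At 20 kPa the viscoelastic samples lay above the elastic ones, while the 2 kPa Viscoelastic group held both the lowest and the highest of the 12 values. No difference passed the test. The averaged viscoelastic difference was 0.09 with a 95% interval of -0.052 to 0.234 (edgeR adjusted p = 0.299), and the pairwise values ran from 0.06 for stiffness on viscoelastic gels to 0.10 for viscoelasticity at 2 kPa. Without replicate 2 of 2 kPa Viscoelastic these were 0.21 and -0.05, so that library set the sign at 2 kPa.

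Crtap, the helper subunit of prolyl 3-hydroxylase, was higher on the stiff viscoelastic gels than on the stiff elastic ones. It was at 254, 260 and 261 CPM in 2 kPa Elastic, 243, 211 and 217 in 20 kPa Elastic, 220.3, 281 and 246 in 2 kPa Viscoelastic and 262, 295 and 266 in 20 kPa Viscoelastic. The 20 kPa Elastic samples lay below all samples of both 2 kPa Elastic and 20 kPa Viscoelastic, and 2 kPa Viscoelastic overlapped every group. At 20 kPa Crtap was 1.23-fold higher on viscoelastic gels (log2 fold change 0.30, SE 0.0838, edgeR adjusted p = 0.0138). With offsets for length and GC content the difference was 0.14 (edgeR adjusted p = 0.138), and the call was also lost without replicate 2 or 3 of 20 kPa Elastic or replicate 2 of 20 kPa Viscoelastic (edgeR adjusted p = 0.064, 0.0541 and 0.0622).

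At 2 kPa the Crtap difference was -0.05, and averaged over stiffness it was 0.12 (edgeR adjusted p = 0.11). The averaged difference was called without replicate 1 of 2 kPa Viscoelastic (0.16, edgeR adjusted p = 0.0244) and with library totals (0.16, edgeR adjusted p = 0.0405). Stiffness differences were -0.21 on elastic gels (edgeR adjusted p = 0.115, and 0.0395 with those 2 groups fitted alone) and 0.14 on viscoelastic gels. The interaction was 0.35 (SE 0.119, edgeR adjusted p = 0.0909) and passed without replicate 2 of 2 kPa Viscoelastic (0.44, edgeR adjusted p = 0.0167).

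Pcolce, the enhancer of the procollagen C-proteinase, averaged 596 ± 29.0, 523 ± 60.0, 569.8 ± 91.7 and 581 ± 55.4 CPM (SD, n = 3). All groups overlapped, with samples between 480.2 and 671 CPM. The averaged viscoelastic difference was 0.04 with a 95% interval of -0.121 to 0.207 (edgeR adjusted p = 0.69), and the pairwise values ran from -0.19 for stiffness on elastic gels to 0.15 for viscoelasticity at 20 kPa.

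The genes that work beside these 10 were counted from lists of the same pathway. For prolyl 3-hydroxylation the 5 genes P3h1, P3h2, P3h3, P3h4 and Ppib were counted. In the averaged viscoelastic comparison 1 of them was higher and 1 lower, and 40.0% of all genes passed. Ppib, the cyclophilin B subunit that binds Crtap, was higher by 14.9% (edgeR adjusted p = 0.00719) and was called at 20 kPa as Crtap was (log2 fold change 0.29). P3h2, a prolyl 3-hydroxylase best known from basement membrane collagen, was 17.7% lower (edgeR adjusted p = 0.00167). Its mean was 27.4 ± 2.71 CPM (SD, n = 3) in 2 kPa Elastic and 21.3 ± 0.86, 19.1 ± 1.26 and 20.7 ± 1.75 CPM in 20 kPa Elastic, 2 kPa Viscoelastic and 20 kPa Viscoelastic. As with P4ha3, 2 kPa Elastic was the group that stood off, here as the highest, and the interaction was 0.47 (edgeR adjusted p = 0.0229). P3h2 was called in the pairwise comparisons too, lower with viscoelasticity at 2 kPa (-0.52) and lower with stiffness on elastic gels (-0.36). Of the 2 hydroxylysine glycosyltransferases, Colgalt1, which adds galactose to hydroxylysine, was 12.8% lower over both stiffnesses (edgeR adjusted p = 0.00109) and Colgalt2, at 0.616 to 1.1 CPM in the group means, was called only at 20 kPa (0.82, edgeR adjusted p = 0.0476).

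Another list held 14 genes, mostly chaperones and foldases of the endoplasmic reticulum. In the averaged comparison 2 were higher and 3 lower, against 19.6% and 20.4% of all genes. Fkbp7 (1.24-fold) and the collagen-binding protein Sparc (1.21-fold) were higher, and Canx, the lectin chaperone calnexin, was 17.4% lower (edgeR adjusted p = 0.00256, 0.00708 and 0.000686). Fkbp10, a foldase that acts on procollagen, was 10.6% lower, and Ero1a, the oxidase that recharges protein disulfide isomerase, was 9.69% lower (edgeR adjusted p = 0.0269 and 0.0176). The list median was -0.02, against 0.01 over all genes. In the pairwise comparisons Canx was lower with viscoelasticity at both stiffnesses. Ero1a was lower with viscoelasticity at 20 kPa (-0.33) and higher with stiffness on elastic gels (0.21), and its interaction was -0.36 (edgeR adjusted p = 0.0258). Of 10 genes of procollagen export, 1 was higher and 2 lower in the averaged comparison (19.6% and 20.4% of all genes). Creb3l1, a transcription factor of collagen secretion, was 1.30-fold higher (log2 fold change 0.38, edgeR adjusted p = 3.26e-05), with 47.0 ± 0.397 and 45.7 ± 0.98 CPM on elastic gels and 55.7 ± 5.29 and 65.2 ± 1.49 CPM on viscoelastic gels (SD, n = 3). Mia3, the cargo receptor that loads procollagen into transport carriers, was 16.8% lower (edgeR adjusted p = 0.000193), and Sec24d, a COPII coat subunit, was 7.73% lower (edgeR adjusted p = 0.0418), a call that was lost on leaving out any of 9 of the 12 libraries, with library totals, with no filter, and with the length and GC offsets (log2 fold change -0.07, edgeR adjusted p = 0.159).

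Propeptide cleavage held the largest single difference of these lists in the averaged comparison, that of Adamts14. Of 7 tested genes of 8, 1 was higher and 4 lower in the averaged comparison, against 40.0% of all genes in either direction, with a median of -0.19. Adamts2, the main procollagen N-proteinase, was 1.25-fold higher (edgeR adjusted p = 0.00915), whereas its relatives Adamts14 and Adamts3 were 39.4% and 22.2% lower (edgeR adjusted p = 0.00437 and 0.0245), both at a few CPM. Tll1, a C-proteinase, was 25.0% lower and Furin 12.3% lower (edgeR adjusted p = 0.00225 and 0.00568). The Tll1 mean was 63.3 CPM in 20 kPa Elastic and 36.6 to 38.9 CPM in the other groups. Its viscoelastic difference was -0.74 at 20 kPa and -0.09 at 2 kPa (edgeR adjusted p = 0.000635 and 0.67). That of Furin did not pass at 20 kPa (-0.09, edgeR adjusted p = 0.342), and neither did that of Adamts14 (-0.10, edgeR adjusted p = 0.792). The Adamts14 mean was 3.66 ± 1.31 CPM (SD, n = 3) in 2 kPa Elastic and 1.44 to 1.83 CPM in the other groups. Adamts3 passed at neither stiffness (edgeR adjusted p = 0.202 at 2 kPa and 0.0725 at 20 kPa). With the length and GC offsets the averaged Furin difference was -0.09 on the log2 scale and did not pass (edgeR adjusted p = 0.114). Pcolce2, the paralog of Pcolce, had an interaction of 0.41 (edgeR adjusted p = 0.0218), and so did Adamts14 (1.25) and, with a negative sign, Tll1 (-0.65) (edgeR adjusted p = 0.0414 and 0.0388). At 2 kPa, Adamts2 was higher and Adamts14, Furin and Pcolce2 lower on viscoelastic gels, against 8.77% higher and 11.1% lower of all genes. With stiffness on elastic gels the same 3 were lower and Tll1 was higher (0.70, edgeR adjusted p = 0.00231). There 7.14% of all genes were lower and 6.81% higher. Those comparisons share the 2 kPa Elastic samples. Tll2 was not tested because of low counts.

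Of 7 fibrillar procollagen chains, the substrates, 2 passed in the averaged comparison, both lower, against 40.0% of all genes, and the list median was 0.03. Col5a1 was 17.9% lower (edgeR adjusted p = 0.00109) and Col5a3 21.5% lower (edgeR adjusted p = 0.00352), and both encode chains of collagen V, which regulates fibril diameter. Col1a1 averaged 6101 ± 141, 6121 ± 271, 6204 ± 557 and 6231 ± 107 CPM (SD, n = 3), and its averaged difference did not pass. Col3a1 had the largest positive value in the averaged comparison, 0.14, and did not pass there. At 20 kPa, Col3a1 (0.26) and Col11a1 (0.35) were higher on viscoelastic gels (edgeR adjusted p = 0.0419 and 0.0127). Col11a1 was also lower with stiffness on elastic gels (-0.31, edgeR adjusted p = 0.0442). Col5a1 was lower at 20 kPa (-0.40, edgeR adjusted p = 0.00166) and Col5a3 at 2 kPa (-0.55, edgeR adjusted p = 0.00447).

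P4ha1, P4ha2 and Plod2 belong to the known hypoxia-inducible genes, so 13 others of that class were counted. In the averaged viscoelastic comparison 3 passed, all higher, against 19.6% of all genes higher, and the list median was 0.09. Adm was 1.5-fold, Egln3 1.32-fold and Ndrg1 1.27-fold higher (edgeR adjusted p = 0.00455, 0.0031 and 0.00381). Vegfa and Pgk1 had negative interactions of -0.44 and -0.36 (edgeR adjusted p = 0.0269 and 0.0201), as P4ha3 did, against 3.12% of all genes. Their means were lowest in 2 kPa Elastic, at 89.2 ± 6.39 and 78.5 ± 2.81 CPM (SD, n = 3), against 95.6 to 110.5 and 91.1 to 96.6 CPM in the other groups. The interactions of the 13 genes ran from -0.63 for Ankrd37 to 0.50 for Ndrg1, and neither end was called. At 2 kPa 4 of the 13 were higher on viscoelastic gels (Adm, Ankrd37, Bnip3 and Pgk1), and at 20 kPa 3 were higher (Adm, Egln3 and Ndrg1) and 1 lower (Kdm3a, named after its values were seen), against 8.77% of all genes higher at 2 kPa and 17.4% higher and 16.1% lower at 20 kPa. With stiffness on elastic gels Pgk1 and Vegfa were higher, against 6.81% of all genes. Ndrg1 had the lowest value there (-0.36) and did not pass. The glucose transporter Slc2a1 had the lowest averaged value, -0.10, and did not pass. Over all 7 lists, 28 pairs of a gene and either of these last 2 comparisons were called, and 15 of the 28 were called in every other fit. The other 13 were lost in at least 1 fit: Fkbp7, Fkbp10, Ero1a, Sec24d, Adamts3 and Furin in the averaged comparison, and P3h2, Ero1a, Tll1, Adamts14, Pcolce2, Vegfa and Pgk1 in the interaction. In the averaged comparison, Fkbp7, Furin and Sec24d were lost with the length and GC offsets, Fkbp10, Ero1a and Sec24d with library totals and Sec24d with no filter. In the interaction, Ero1a, Tll1 and Adamts14 were lost with the replicate block, and P3h2, Tll1 and Adamts14 with the block and offsets together. Apart from Fkbp7 and Furin, each was also lost on leaving out at least 1 library. The edgeR adjusted p of a lost call was 0.165 at most.

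**Figure D4:**
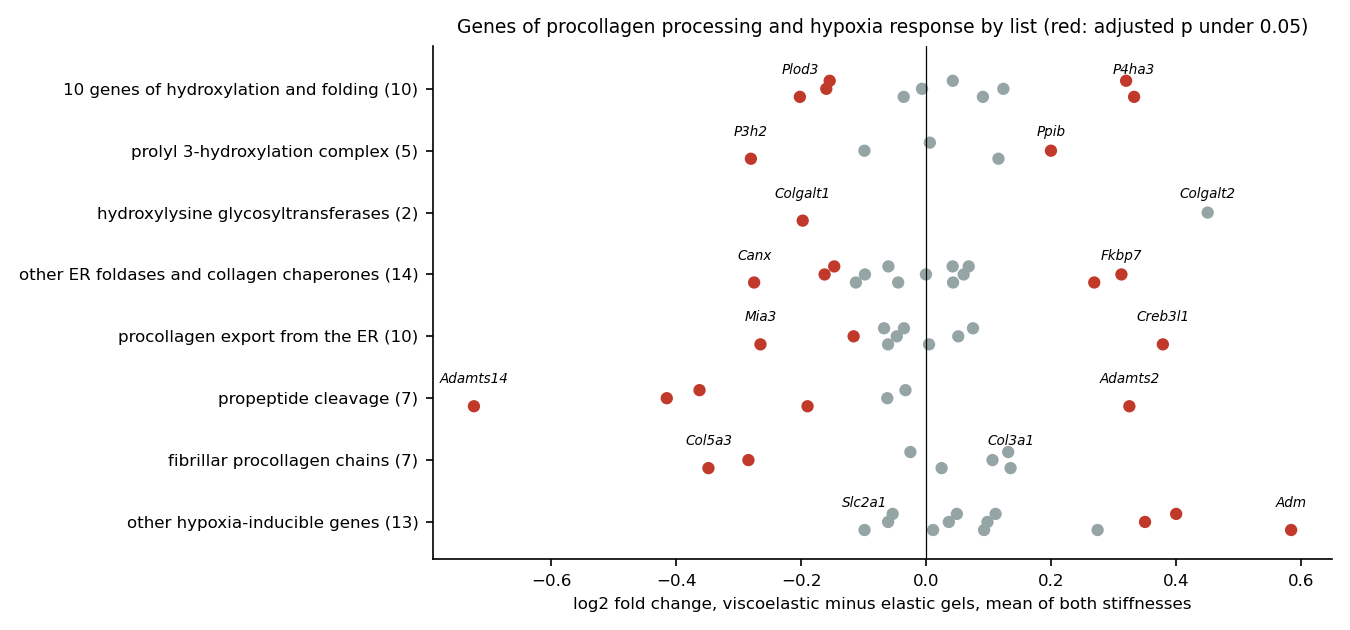
Log2 fold change between viscoelastic and elastic gels, averaged over both stiffnesses, for the 10 genes and for the 7 lists of genes that act beside them; each point is a gene, red marks an adjusted p under 0.05, and the genes at the ends of each list are named. The 10 genes run from Plod3 at -0.20 to P4ha3 at 0.33, inside the range of the other lists, which runs from Adamts14 at -0.72 to Adm at 0.58.

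The genes whose levels followed those of the 10 most closely were found by Pearson correlation of log2 CPM over the 12 samples, as a description only, since the samples share 4 groups. For P4ha3 they were Paics (r = 0.97), Cth (0.951) and Hsph1 (0.95). For Plod2 they were Cd302 (0.971), the cartilage matrix gene Comp (0.958) and the small proteoglycan Aspn (0.957). Comp is one of the cartilage markers, and averaged 576 and 499 CPM on the elastic gels and 708 and 778 CPM on the viscoelastic gels at 2 and 20 kPa, so a cartilage gene moved with Plod2. Col2a1 had the same order of group means as Plod2, although its 2 kPa groups were close (2950.1 CPM elastic and 2964 CPM viscoelastic). Acan, Col9a1 and Snorc did not share that order. At 2 kPa, Col9a1 averaged 295 CPM on elastic and 266 CPM on viscoelastic gels, and Snorc 4.62 and 3.88 CPM. The part of cartilage-expressing cells in the Plod2 result was not tested.

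Plod3 was closest to Tmem63a (0.966), P4ha2 (0.944) and Erlin2 (0.941), and P4ha2 to Plod3 and to Pkd2 (0.916), so that P4ha2 and Plod3 were the closest pair within the set. P4ha1 was closest to Pdia6 (0.905), Dhrs7b (0.893) and Tnfaip6 (0.892), P4hb to Tmed9 (0.925), Kcnk6 (0.897) and Ergic2 (0.89), and Serpinh1 to Sec11a (0.945), Gtf2f1 (0.941) and Calr (0.925). Crtap was closest to Lrpap1 (0.983), Laptm4a (0.967) and Ppt1 (0.966), Pcolce to Rcn3 (0.96), Kdelr1 (0.944) and Tap2 (0.94), and Plod1 to Slc39a11 (0.956), Hgsnat (0.954) and Slc38a10 (0.95). Among the 10, Crtap and Pcolce had r = 0.855, whereas Plod2 and Plod3 had r = -0.639 and P4ha3 and Plod1 r = -0.689.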

How the data were processed

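Poly-A RNA was sequenced from 12 samples, 3 in each of 4 gel groups taken from the sample titles. Per the labels and the study's methods, the authors trimmed reads (Trimmomatic), aligned them to mm10 (STAR) and counted them per gene (featureCounts), and they deposited raw counts, which were used unchanged. The annotation release and the settings for strand and for reads with several matches are not given in the sources used here. The deposited table held no rows without a gene name and 0 columns outside the 12 samples. Chromatin accessibility data were not used here.

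Counts were scaled by TMM in edgeR 4.0.16 (R 4.3.3, limma 3.58.1). Genes were kept by filterByExpr with the 4 groups (minimum count 10, total 15), which left 14542. The quasi-likelihood model held all 12 samples and estimated 1 mean for each gel group. Its p-values were adjusted over all tested genes by Benjamini-Hochberg, with 0.05 as threshold and no fold minimum. The biological coefficient of variation was 7.5%. The fit was tested on simulated counts with known changes. Intervals are unadjusted at 95%.

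Alternatives were DESeq2 1.42.0, its size factors in edgeR, library totals, no filter on low counts, the replicate number as a block, offsets for length and GC content (known for 94.8% of tested genes, from GENCODE M21), both together, only the groups compared, an adjusted p under 0.01, and each sample left out. Levels per kilobase used the union of exons. The p-values rest on the spread between these samples, which may be partly technical.

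The members and lists were chosen with earlier results of these data known. All 10 members are named. From each list, genes called in the averaged comparison or the interaction and genes at the ends of the list's range are named, and for each member the 3 genes with the highest Pearson r, of which 1 is not reported here. Depth per library was 36626221 to 43612804 counts.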

Additional observations from a re-analysis of the deposited data

Results flagged for a closer look

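P4ha3 differed in its response to stiffness between the gel types. The interaction in log2 fold change was -0.543 (SE 0.117, edgeR adjusted p = 0.0109), from a stiffness difference of 0.46 on elastic gels and -0.09 on viscoelastic gels. The level was above the mean of 2 kPa Elastic in 3 of 3 samples of 20 kPa Elastic. No other of the 10 genes had a called interaction. No test for single outlying values was run in groups of 3 samples, but the P4ha3 call held with each sample left out in turn.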

How the results depend on the processing

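The number of the 10 genes called moved with the processing. At 2 kPa, viscoelastic against elastic, 2 were called, and 1 with library totals, with the replicate block, with length and GC offsets, with both of these together, with only the groups compared and at an adjusted p under 0.01; leaving out 1 sample gave 1 to 3. At 20 kPa, 4 were called, and 2 with the offsets, with the replicate block and offsets, and at 0.01; leaving out 1 sample gave 2 to 4. For stiffness on elastic gels 1 was called, and 3 with only the groups compared; leaving out 1 sample gave 1 to 2. For stiffness on viscoelastic gels 0 were called, and 1 with no filter and 1 with DESeq2; leaving out 1 sample gave 0. For the averaged viscoelastic difference 5 were called, 4 with library totals (without P4ha2 and Plod1, and with Crtap), and 3 with the offsets, with the replicate block and offsets, and at 0.01; leaving out 1 sample gave 4 to 5. For the interaction 1 was called, 2 with the offsets and 0 at 0.01; leaving out 1 sample gave 1 to 2. The causes were not tested. Over all genes, the count for stiffness on viscoelastic gels was 331, and 653 with no filter, 769 with DESeq2, 154 with the replicate block, 186 with the offsets, 93 with both and 38 with only the groups compared. Leaving out 1 sample gave 9 (without 20 kPa Viscoelastic replicate 3) to 351 there, 1545 to 3085 (2892 with all samples) for viscoelasticity at 2 kPa, 3177 to 5381 (4866) at 20 kPa, 1063 to 2369 (2029) for stiffness on elastic gels and 670 to 1182 (1100) for the interaction.

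No called value changed sign. Values near 0 did. With library totals the averaged difference was 0.031 for P4ha1 and 0.001 for P4hb. With length and GC offsets, without and with the replicate block, P4ha3 at 20 kPa was -0.017 and -0.016, and on elastic gels the stiffness difference was 0.01 and 0.011 for P4hb and 0.067 and 0.068 for Plod3. For Plod3 it was also 0.003 with DESeq2, 0.003 with its size factors in edgeR and 0.001 with library totals. Leaving out 1 sample gave -0.04 to 0.018 for P4ha1 averaged, -0.026 to 0.01 for P4hb and -0.035 to 0.023 for Plod3 in stiffness on elastic gels, -0.047 to 0.174 for Serpinh1 and -0.146 to 0.031 for Crtap at 2 kPa, -0.015 to 0.206 for Serpinh1 in stiffness on viscoelastic gels, and -0.024 to 0.09 for Pcolce averaged.

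On average, samples with the same number did not deviate together (mean r = -0.0248 over 18 pairs, against 0.0126 over 36 pairs of different numbers), so the numbers were not taken to pair samples. Between 2 kPa Viscoelastic and 20 kPa Viscoelastic the same-number r was 0.184, 0.308 and 0.0483, and pairs of different numbers ran from -0.238 to 0.0805. Between 2 kPa Elastic and 20 kPa Elastic the same-number r was -0.0502, -0.0178 and -0.16. The replicate block changed 1 of the calls on the 10 genes, Plod1 at 2 kPa (adjusted p = 0.05 by edgeR). With 3 samples a group, differences within the 95% intervals given for P4ha1, P4hb, Serpinh1 and Pcolce cannot be set aside.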
